A study of Mus musculus with 2 samples.

Results

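Foxp3+ T cells were examined in single-cell RNA-seq of cells that had infiltrated colonic polyps and had been sorted for the myeloid surface proteins CD11b and CD11c. The members were chosen by their own transcripts. Each barcode (the tag shared by the RNA of 1 captured cell) had 200 to 4000 detected genes, at most 10% mitochondrial transcripts, transcripts of at least 2 of the 5 T cell receptor complex genes *Cd3d*, *Cd3e*, *Cd3g*, *Trac* and *Trbc2*, and at least 1 *Foxp3* transcript. Barcodes with 80 or more *S100a8* and *S100a9* UMIs per 10000, or with 20 or more *C1qa*, *C1qb* and *C1qc* UMIs per 10000, were left out, because those genes mark neutrophils and macrophages. A UMI is a unique molecular identifier, so 1 UMI stands for 1 captured transcript copy. This gave 71 Foxp3+ T cells among 183 T cells, 5849 barcodes kept and 6547 barcodes in all, and they were compared with the 112 T cells that had no *Foxp3* UMI.

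The mice were of the C57BL6/J strain and 26 weeks old by the labels, either wild-type (WT) or labelled KO, which the study describes as *Clec7a*-/- mice lacking the β-glucan receptor Dectin-1. Both groups had received AOM (azoxymethane, a carcinogen of the colon) followed by DSS (dextran sodium sulfate, which injures the colonic epithelium) at 1% in 3 cycles, and polyps were taken at 16 weeks. Cells of several mice were pooled into 1 library per genotype, so differences between the genotypes have no replicate, and they cannot be told apart from differences between the pools or library preparations. *Clec7a* itself was not analysed here, so the genotype was not checked from the data. The WT library held 15869215 UMIs in 3467 barcodes and the *Clec7a*-/- library 11808230 UMIs in 3080 barcodes. The libraries shared 17 barcode sequences, none of them in a T cell.

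Regulatory T cells (Treg cells) are CD4+ T cells that restrain other immune cells, and the transcription factor Foxp3 is needed to establish and keep that state. They take up interleukin-2 through a receptor containing CD25 (*Il2ra*), carry the inhibitory receptor CTLA-4 and the co-stimulatory receptor ICOS, and release cytokines such as IL-10. Some Treg cells of the colon carry ST2 (*Il1rl1*), the receptor for the alarmin IL-33, with GATA3, whereas others are induced by the microbiota.

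The WT library contained 24 Foxp3+ T cells and 31 T cells without a *Foxp3* UMI. The *Clec7a*-/- library contained 47 and 81. *Foxp3* lies on the plus strand of chromosome X at chrX:7573644-7595245 (GRCm38). Its UMIs chose the members, so its level is a description. It had 89 UMIs in the WT members and 115 in the *Clec7a*-/- members, or 12.2 and 8.80 UMIs per 10000 UMIs of the class. The median was 3 UMIs per member in the WT library, with a largest value of 16, and 2 in the *Clec7a*-/- library, with a largest value of 10. Just inside the threshold, 5 WT members and 19 *Clec7a*-/- members had a single *Foxp3* UMI. Just outside, 6 and 4 kept barcodes had a *Foxp3* UMI with only 1 of the 5 T cell genes, 3 and 6 had none of these genes, and 2 and 4 were past the neutrophil or macrophage limit. The highest member had 37.5 *S100a8* and *S100a9* UMIs per 10000 in WT and 77.6 in *Clec7a*-/-, and the nearest barcode left out by that limit had 165.7 and 98.0. The highest *C1q* sum of a member was 7.10 and 14.3, and the only barcode left out by that limit, in *Clec7a*-/-, had 85.7.

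The label of a Treg cell was checked against markers other than *Foxp3*. At least 1 of *Il2ra*, *Ctla4*, *Ikzf2*, *Tnfrsf18*, *Tnfrsf4* and *Icos* was detected in 24 of 24 WT and 46 of 47 *Clec7a*-/- members, and at least 3 of them in 17 and 31. T cells without a *Foxp3* UMI also carried them, with at least 1 in 29 of 31 and 71 of 81, and at least 3 in 17 and 24. *Cd4*, the co-receptor of helper and regulatory T cells, was detected in 17 of 24 WT and 28 of 47 *Clec7a*-/- members, against 11 of 31 and 22 of 81 of the comparison cells. *Cd8a* or *Cd8b1*, which mark CD8 T cells, was detected in 1 WT member and 0 *Clec7a*-/- members. No member had a UMI of *Trdc*, *Tcrg-C1* or *Tcrg-C2*, constant regions of the γδ T cell receptor, whereas 12 of 31 and 33 of 81 comparison cells had 1 or more. A count of 0 over a class allows up to 3 UMIs, which is 0.412 UMIs per 10000 in the WT members and 0.230 in the *Clec7a*-/- members. The T cell genes themselves were part of the rule. A *Cd4* UMI was found in most but not all members, and the comparison cells were a mixture.

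Depth differed between the classes. The members held 72894 UMIs in the WT library (median 2448 per barcode, range 803 to 11294) and 130629 in the *Clec7a*-/- library (median 1920, range 670 to 11435). The comparison cells held 93360 and 168385, with medians of 2107 and 1525. A T cell with few UMIs can miss its *Foxp3* transcript, so a T cell without a *Foxp3* UMI is not known to lack the protein.

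Foxp3+ T cells made up 0.763% of the barcodes kept in the WT library (24 of 3147, exact binomial 95% interval 0.489% to 1.13%) and 1.74% in the *Clec7a*-/- library (47 of 2702, 1.28% to 2.31%), a log2 ratio of 1.19. With at least 2 *Foxp3* UMIs required, the shares were 0.604% (0.364% to 0.941%) and 1.04% (0.690% to 1.49%), and these intervals overlap. The intervals also overlapped with at least 3 T cell genes required, and without barcodes with an *H2-Aa*, *H2-Ab1* or *Cd74* UMI. These intervals, like all others given here, cover counting error only. T cells as a whole also took a larger share of the *Clec7a*-/- library, at 4.74% against 1.75%, a log2 ratio of 1.44. Among T cells, the Foxp3+ share was 43.6% in WT (30.3% to 57.7%) and 36.7% in *Clec7a*-/- (28.4% to 45.7%), and these intervals overlap. With each barcode thinned to 500 UMIs, the share among T cells was 23.6% in WT and 19.5% in *Clec7a*-/-, and thinned to 1000 UMIs it was 41.7% and 29.1%, with overlapping intervals at both depths. Outside the T cell limits, a *Foxp3* UMI occurred in 11 of 3092 kept WT barcodes (0.356%) and in 14 of 2574 *Clec7a*-/- barcodes (0.544%), whose median depths were 3410 and 2956 UMIs. Of these, 8 in each library had a UMI of at least 1 of the 5 T cell genes. As a background, barcodes with none of these genes had a *Foxp3* UMI in 3 of 2994 in WT (0.100%, 0.0207% to 0.292%) and 6 of 2457 in *Clec7a*-/- (0.244%, 0.0897% to 0.531%). The log2 ratio of this background was 1.29, beside 1.19 for Foxp3+ T cells, from 9 barcodes and with overlapping intervals. The sort was for CD11b and CD11c, so the share of T cells among sorted cells is not their share in the polyp. *Itgax*, which encodes CD11c, had 1 UMI in the WT members and 9 in the *Clec7a*-/- members. *Itgam*, which encodes CD11b, had 3 in each.

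The question of which genes set Foxp3+ T cells apart from other T cells of the same library was addressed with UMIs summed per library and class, which gave 4 sums. In an edgeR quasi-likelihood fit with the library as a block, 0 of 4124 genes passed a Benjamini-Hochberg adjusted p of 0.05 (0% called), and the smallest adjusted p was 0.404. At an unadjusted p below 0.05 there were 116 genes higher and 126 lower. DESeq2 called 3 genes higher (*Il1rl1*, *Klrg1*, *Penk*) and 3 lower (*Gzma*, *Il17a*, *Cd163l1*), which are named after their values were seen. The edgeR fit has 1 residual degree of freedom and its calls moved with the settings, so the 0 calls do not show that the classes were alike. No list described below therefore had a member past the edgeR threshold in either direction. As a description by size, 75 genes were at least 2-fold higher in Foxp3+ T cells in each of the libraries (1.82% of 4124) and 71 at least 2-fold lower (1.72%). That rule, and the genes named by it, were chosen after the data were seen. Of the higher genes, *Il1rl1*, *Klrg1*, *Tnfrsf18*, *Ikzf4*, *Cdk1* and *Cd2* reached the minimum of 20 UMIs only through Foxp3+ T cells. Their place among the 75 was thus largely fixed by that minimum, and counts of list members are no test of the lists.

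**Figure D1:**
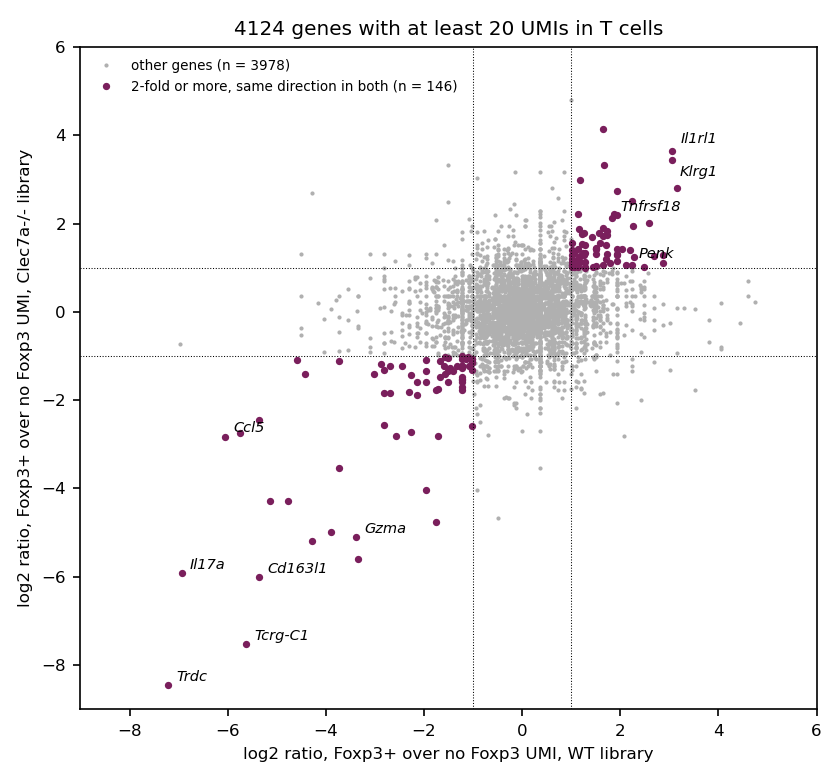
Log2 ratio of Foxp3+ T cells over T cells without a Foxp3 UMI for 4124 genes with at least 20 UMIs over the 4 sums, in the WT library (x axis) and in the Clec7a-/- library (y axis), with a pseudocount of 0.5 UMI. Each point is a gene, dotted lines mark 2-fold, and the 146 dark points are 2-fold or more in the same direction in both libraries, with Il1rl1 and Klrg1 at the upper right and Trdc, Il17a and Tcrg-C1 at the lower left.

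Among cytokine receptors, *Il1rl1* had the largest ratio over all genes that were at least 2-fold higher in both libraries, ranked by the smaller of the 2 ratios. It lies at chr1:40429570-40465415 on the plus strand (GRCm38) and encodes ST2. In the WT library it had 48 UMIs in 9 of 24 Foxp3+ T cells and 7 UMIs in 4 of 31 other T cells, a log2 ratio of 3.05 (exact conditional 95% interval 1.98 to 4.52). In the *Clec7a*-/- library it had 43 UMIs in 13 of 47 and 4 UMIs in 3 of 81, a log2 ratio of 3.64 (2.33 to 5.73). The level was 6.59 and 3.29 UMIs per 10000 in the Foxp3+ T cells of the WT and *Clec7a*-/- libraries, and 0.750 and 0.238 in the comparison cells. The 2 Foxp3+ sums were thus the high ones, and their Poisson intervals did not overlap those of the comparison sums of the same library. With each barcode thinned to 1000 UMIs, *Il1rl1* was detected in 6 of 22 WT members against 3 of 26 comparison cells, and in 9 of 41 *Clec7a*-/- members against 0 of 62, after 2, 5, 6 and 19 shallower cells were left out. The binomial intervals of these shares overlapped in WT (10.7% to 50.2% and 2.45% to 30.15%). They did not overlap in *Clec7a*-/- (10.6% to 37.6% and 0% to 5.78%). Outside the T cell limits its level was 0.179 and 0.0792 UMIs per 10000. The edgeR adjusted p was 0.404 and the DESeq2 adjusted p 0.0181.

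Of the 9 cytokine receptor genes with enough UMIs, *Il1rl1* was the only one 2-fold higher in both libraries and none was 2-fold lower, with medians of 0.05 and 0.19 on the log2 scale beside 0.05 and 0.03 over all genes. *Il2ra* had 76 UMIs against 94 in WT and 92 against 100 in *Clec7a*-/-, log2 ratios of 0.05 (-0.41 to 0.50) and 0.25 (-0.18 to 0.67). Against all T cells without a *Foxp3* UMI, no difference in CD25 transcripts was detectable at this depth. *Il2rb* and *Il2rg*, the other chains of the interleukin-2 receptor, had log2 ratios of -0.52 and 0.23 in WT and -0.41 and 0.15 in *Clec7a*-/-. *Il1r2*, a decoy receptor for interleukin-1, had opposite signs in the libraries, with log2 ratios of -0.82 (-1.45 to -0.25) in WT and 0.92 (0.44 to 1.41) in *Clec7a*-/-.

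Of 13 suppressive and checkpoint genes with enough UMIs, *Klrg1*, *Penk* and *Nt5e* were 2-fold higher in both libraries and none was 2-fold lower, with list medians of 0.50 and 0.71. *Klrg1* had enough UMIs only through Foxp3+ T cells. *Klrg1*, an inhibitory lectin-like receptor of differentiated T cells, had 35 UMIs in 11 WT members against 5 UMIs in 5 comparison cells, and 46 UMIs in 17 *Clec7a*-/- members against 5 in 4. Its log2 ratios were 3.05 (1.81 to 4.87) and 3.45 (2.24 to 5.26), with adjusted p of 0.404 in edgeR and 0.0447 in DESeq2. *Klrg1* and *Il1rl1* were found in the same barcode in a part of the members. Their co-detection was not matched for depth and not set against the number expected from each gene alone. Both were detected in 7 WT and 9 *Clec7a*-/- members, only *Il1rl1* in 2 and 4, only *Klrg1* in 4 and 8, and neither in 11 and 26. In the comparison cells both were detected in 1 barcode of each library.

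*Penk*, which encodes the precursor of the enkephalin peptides, had many UMIs in few cells. In WT it had 177 UMIs in 7 members, 63 of them in 1 barcode, and 49 UMIs in 3 comparison cells. In *Clec7a*-/- it had 89 UMIs in 7 members, 40 of them in 1 barcode, and 43 UMIs in 5 comparison cells, 33 of them in 1. Its log2 ratios were 2.20 and 1.41, so that a handful of barcodes carried the value in each sum. The fitted ratio over both libraries was 1.82, and 0.16 when every barcode with an *H2-Aa*, *H2-Ab1* or *Cd74* UMI was left out. *Nt5e*, which encodes the adenosine-producing ectoenzyme CD73, had 28 UMIs against 10 in WT and 42 against 25 in *Clec7a*-/-, log2 ratios of 1.80 (0.76 to 3.05) and 1.10 (0.37 to 1.89).

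*Icos* and *Ctla4* had the most UMIs of this list. *Icos* had 166 UMIs in 21 WT members and 96 in 23 comparison cells, and 280 in 38 *Clec7a*-/- members against 238 in 57. Its log2 ratios were 1.14 (0.78 to 1.53) and 0.60 (0.35 to 0.86), and the edgeR adjusted p was 0.753. *Ctla4* had 57 UMIs against 52 in WT and 154 against 97 in *Clec7a*-/-, log2 ratios of 0.49 (-0.08 to 1.06) and 1.03 (0.66 to 1.42). Both genes were widespread in T cells of these polyps, with or without a *Foxp3* UMI. *Fgl2*, a secreted fibrinogen-like effector of Treg cells, had log2 ratios of -0.05 and -1.26. *Il10* was detected in 6 of 24 WT members and 4 of 31 comparison cells, and in 18 of 47 and 7 of 81 in *Clec7a*-/-. Its log2 ratios were 0.45 (-0.70 to 1.62) and 1.28 (0.47 to 2.15). *Il10* and *Il1rl1* were detected together in 1 WT and 0 *Clec7a*-/- members.

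The receptors of the TNF family leaned to Foxp3+ T cells in both libraries, with 6 of 7 measured members higher in both, where 1203 of all 4124 genes were, and *Tnfrsf4* and *Tnfrsf18* at least 2-fold. *Tnfrsf4* encodes the co-stimulatory receptor OX40. It had 19 UMIs in 14 WT members against 7 in 7 comparison cells, and 53 in 27 *Clec7a*-/- members against 20 in 15, log2 ratios of 1.74 (0.48 to 3.29) and 1.75 (1.01 to 2.59). *Tnfrsf18*, which encodes GITR, had 12 UMIs against 4 and 25 against 7, log2 ratios of 1.83 (0.22 to 4.03) and 2.13 (0.95 to 3.66). *Tnfrsf9*, which encodes 4-1BB, had the most UMIs of the list. It had 170 UMIs in 23 of 24 WT members and 395 in 43 of 47 *Clec7a*-/- members, log2 ratios of 0.64 (0.31 to 0.97) and 1.33 (1.09 to 1.59). *Tnfrsf1b*, the TNF receptor of Treg cells, had log2 ratios of 0.57 and 0.18, and *Traf1*, an adaptor of these receptors, -0.25 and 0.95. The list medians were 0.64 and 1.10, beside 0.05 and 0.03 over all genes.

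**Figure D2:**
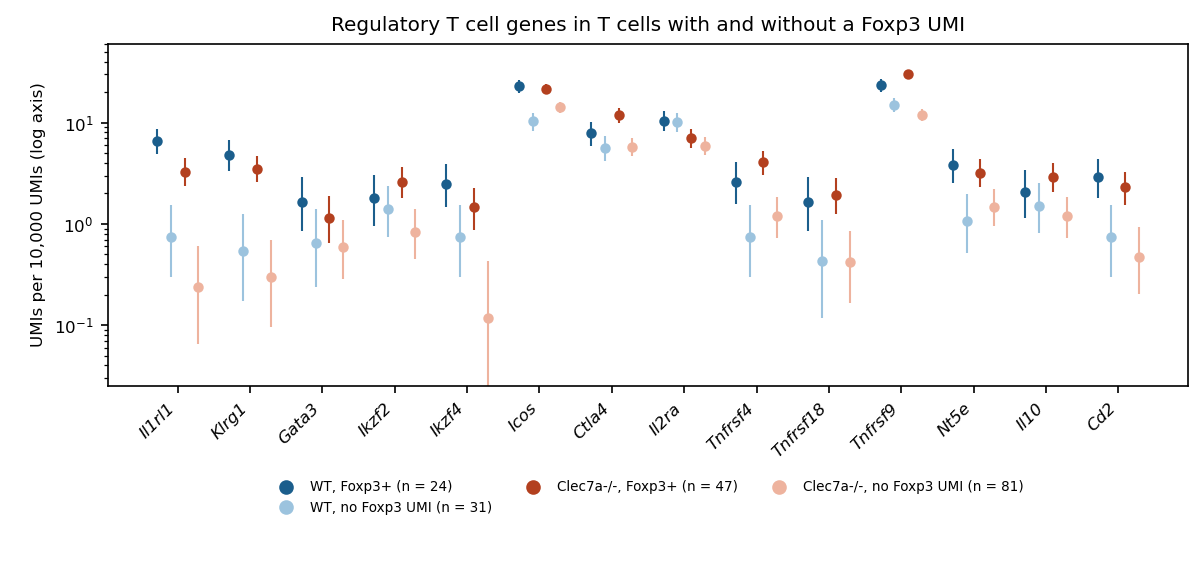
UMIs per 10000 UMIs of the class (log axis) for 14 genes in the 4 sums, with exact Poisson 95% intervals as bars, which cover counting error only. Il1rl1, Klrg1, Tnfrsf4, Tnfrsf18 and Cd2 were higher in Foxp3+ T cells of both libraries, while the log2 ratios of Il2ra were 0.05 and 0.25.

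Of 16 measured transcription factor genes of Treg biology, *Ikzf4* was at least 2-fold higher in both libraries, and *Tcf7* was among those at least 2-fold lower. *Ikzf4* encodes Eos, a partner of Foxp3 in gene repression. It had 18 UMIs in 10 WT members against 7 in 5 comparison cells, and 19 in 11 *Clec7a*-/- members against 2 in 2, log2 ratios of 1.66 (0.39 to 3.22) and 3.33 (1.56 to 6.76). *Ikzf2*, which encodes Helios, had 13 UMIs in each WT class and 34 against 14 in *Clec7a*-/-, log2 ratios of 0.36 (-0.87 to 1.58) and 1.62 (0.71 to 2.66). *Gata3*, a partner of the ST2 programme, had 12 against 6 and 15 against 10 UMIs. Its log2 ratios were 1.30 (-0.17 to 3.06) and 0.93 (-0.30 to 2.27).

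*Tcf7*, which encodes the TCF1 factor of naive and memory T cells, had 1 UMI against 6 in WT and 0 against 17 in *Clec7a*-/-. Its log2 ratio in WT was -1.76 (-7.75 to 0.82), an interval that included 0. It reached the minimum of UMIs only through the comparison cells. The factors with the most UMIs were *Id2*, *Maf*, *Rora* and *Runx3*. *Id2*, which restrains E proteins, had log2 ratios of -0.97 (-1.30 to -0.65) and -0.63 (-0.91 to -0.36). *Maf*, *Rora* and *Runx3*, regulators of helper and tissue T cells, had ratios between -0.21 and 0.30 in both libraries, and their intervals included 0.

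Genes of γδ, type 17 and cytotoxic T cells were among the 71 that were lower in both libraries. Of all 4124 genes 1.72% were. Only 2 of the 16 conventional effector genes had enough UMIs, *Il17a* and *Tnfsf8*, and both were among the 71. So were *Gzma* and *Ccl5* of the 8 measured cytotoxic and chemokine genes. *Il17a*, *Tnfsf8*, *Gzma*, *Ccl5*, *Trdc*, *Tcrg-C1*, *Cd163l1* and *Blk* reached the minimum of UMIs only through the comparison cells. Their place among the 71 was thus largely fixed by that minimum. These counts describe the genes that were kept and are no test of the lists. *Trdc* had 0 UMIs in the Foxp3+ T cells of both libraries, against 95 UMIs in 10 of 31 WT comparison cells and 226 in 30 of 81 *Clec7a*-/- comparison cells. Set against the limit of 3 UMIs, its level was at least 24.7-fold lower in the members of the WT library and at least 58.4-fold lower in those of *Clec7a*-/-. *Tcrg-C1* had 0 in both, against 31 and 118. *Cd163l1*, a scavenger receptor found on γδ T cells, had 0 in both, against 26 and 41, and *Blk*, a kinase of B cells and IL-17-producing γδ T cells, 0 against 6 and 31. *Il17a*, the cytokine of type 17 T cells, had 0 UMIs in WT members against 78 in 6 comparison cells, and 1 in *Clec7a*-/- members against 116 in 17, log2 ratio -5.91 (-11.81 to -3.99). Its adjusted p was 0.404 in edgeR and 0.00173 in DESeq2. The other measured effector gene, *Tnfsf8*, which encodes CD30 ligand, had 5 UMIs against 16 and 10 against 39. Its log2 ratios were -1.23 (-3.12 to 0.19) in WT and -1.55 (-2.77 to -0.57) in *Clec7a*-/-. *Il17f* and *Il22* had 0 UMIs in the members of both libraries, and *Ifng*, *Il4*, *Il5*, *Il13* and *Il21* were at 0 there as well, where *Ifng* had 1 UMI in all comparison cells and the others 0.

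Cytotoxic and chemokine genes were unevenly spread. *Gzma*, a granule protease, had 8 UMIs in 1 WT member and 1 UMI in 1 *Clec7a*-/- member, against 113 in 4 and 66 in 5 comparison cells. Of the 113, 75 came from 1 barcode. *Ccl5*, a chemokine of effector T cells, had 1 and 7 UMIs against 127 and 68, and 57 of the 68 came from 1 barcode. *Gzmb*, another granule protease, had 38 UMIs against 170 in WT, 112 of the latter in 1 barcode, and 162 against 153 in *Clec7a*-/-, log2 ratios of -1.79 and 0.45. *Fcer1g*, a signalling adaptor of innate-like lymphocytes, had log2 ratios of -1.39 (-2.80 to -0.28) and -0.79 (-1.52 to -0.13). Among homing and residence genes none of 16 was 2-fold in both libraries. *Cxcr6*, the receptor for CXCL16, had 54 UMIs against 111 and 61 against 205, log2 ratios of -0.68 and -1.37. *Cxcr4* and *Cd44* had ratios of -0.25 and -0.42 in WT and 0.39 and -0.62 in *Clec7a*-/-, and *Ccr7*, which guides cells to lymph nodes, -1.75 and 0.24.

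**Figure D3:**
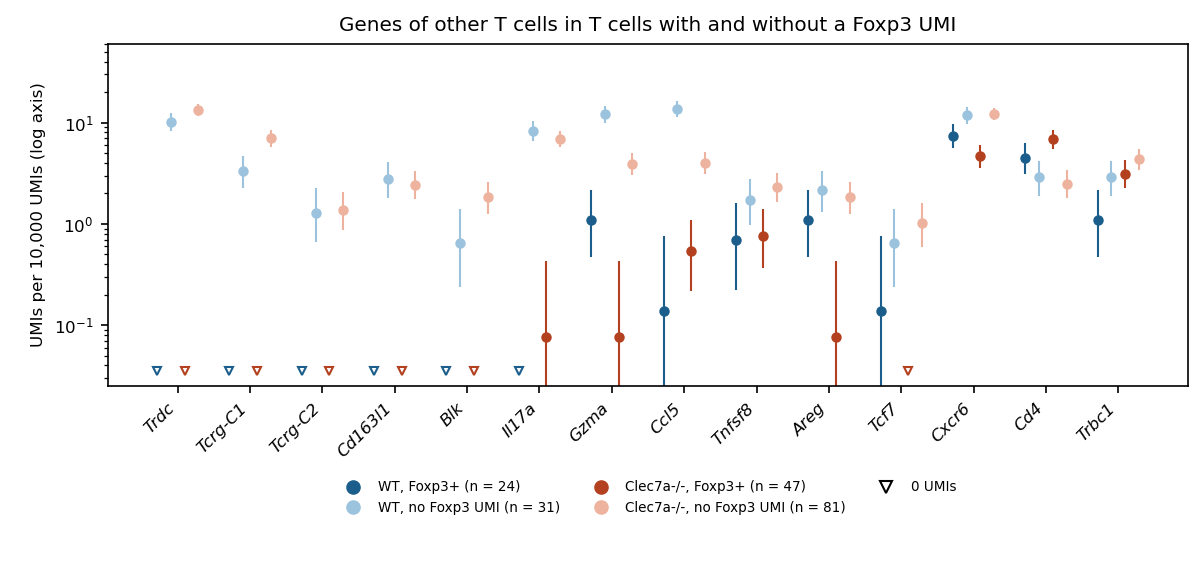
UMIs per 10000 UMIs of the class (log axis) for 14 genes of γδ, type 17, cytotoxic and other T cells in the 4 sums, with exact Poisson 95% intervals as bars; open triangles at the base mark 0 UMIs. Trdc, Tcrg-C1, Tcrg-C2, Cd163l1 and Blk were at 0 in Foxp3+ T cells of both libraries, and Cd4 was higher in Foxp3+ T cells by 0.64 in WT and 1.46 in Clec7a-/- on the log2 scale.

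The values depended on which other T cells stood in the comparison. When it was limited to the 11 WT and 22 *Clec7a*-/- cells that had a *Cd4* UMI and no *Cd8a* or *Cd8b1* UMI, *Il1rl1* had 1 UMI in each library, and its log2 ratios were 4.09 and 3.41. *Klrg1* had 5 and 0 UMIs in these cells, with a ratio of 1.76 in WT. *Tnfrsf4* had ratios of 1.55 (-0.03 to 4.13) in WT and 1.04 (0.07 to 2.31) in *Clec7a*-/-. *Tnfrsf18* had 1.39 and 0.76 and *Cd2* 1.04 and 1.02, and all 4 intervals included 0. *Tnfrsf9* had 0.10 (-0.28 to 0.50) in WT and 1.87 (1.41 to 2.40) in *Clec7a*-/-. *Nt5e* had 1.45 (0.17 to 3.29) and 0.43 (-0.50 to 1.59), and *Ikzf4* had 0.82 (-0.56 to 2.70) in WT and 0 UMIs in the *Clec7a*-/- comparison cells. The 2-fold differences of several genes thus were smaller, or within counting error, beside *Cd4* cells. *Icos* had ratios of 0.51 and 0.46 in this comparison, *Ctla4* -0.23 and 0.16, and *Il10* -0.37 and -0.14. *Il2ra* had 40 and 17 UMIs in these cells, with ratios of -0.01 (-0.57 to 0.59) in WT and 0.95 (0.23 to 1.82) in *Clec7a*-/-. *Gzma* had 0 UMIs in these cells of both libraries, against 8 and 1 in the members, and *Ccl5* had 15 and 0, against 1 and 7, so the lower *Gzma* of both libraries and the lower *Ccl5* of *Clec7a*-/- were not seen against *Cd4* cells. Against the 19 and 48 comparison cells without a γδ receptor UMI, a comparison added after the data were seen, *Gzma* had 3 and 0 UMIs. Nearly all of its comparison UMIs were thus in cells with γδ receptor UMIs, and its ratio in WT turned from -3.38 to 1.04 (-0.88 to 3.73). In that comparison *Il2ra* had ratios of 0.58 (0.03 to 1.16) and 0.48 (-0.02 to 1.02), and *Cxcr6* had ratios of 0.09 and -0.05. *Il17a* had 29 and 45 UMIs there, against 0 and 1 in the members.

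T cell lineage genes outside the rule included *Cd2*, an adhesion receptor, with 21 UMIs against 7 and 30 against 8, log2 ratios of 1.88 (0.65 to 3.42) and 2.21 (1.11 to 3.61). *Cd4* had 33 against 27 and 90 against 42, ratios of 0.64 (-0.13 to 1.44) and 1.46 (0.92 to 2.03). *Lat*, an adaptor of the T cell receptor, had 0.30 and -0.88, and *Trbc1*, the other constant region of the β chain, -1.34 and -0.46. Of 10 genes induced by T cell receptor signals, none was 2-fold in both libraries, 0 were higher in both and 5 were lower in both, where 1027 of all 4124 genes were. The list medians were -1.03 and -0.27. Those with the most UMIs were *Nfkbia*, with ratios of -0.03 and -0.09, *Tnfaip3*, with -0.79 and -0.52, *Nr4a3*, with -1.27 and 0.31, and *Dusp2*, with -0.98 and -0.98.

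Of 12 proliferation genes, 10 were higher in Foxp3+ T cells in both libraries, where 1203 of all 4124 genes were, and *Cdk1* and *Ube2c* at least 2-fold, with list medians of 0.33 and 0.53. *Cdk1*, the mitotic kinase, had 16 UMIs in 4 WT members against 3 in 2 comparison cells, and 23 in 6 *Clec7a*-/- members against 7 in 4, log2 ratios of 2.59 (0.97 to 5.19) and 2.01 (0.82 to 3.55). At least 3 proliferation genes were detected in 9 of 24 and 10 of 47 members and in 11 of 31 and 17 of 81 comparison cells. These shares were similar between the classes in each library, so the higher UMIs did not come with a larger share of such cells. The genes of the list with the most UMIs were *Pcna*, *Hmgb2*, *Tubb5* and *Stmn1*. *Tubb5* had ratios of 0.90 (0.15 to 1.68) and 0.73 (0.20 to 1.26), and the other 3 had ratios between 0.01 and 0.61 with intervals that included 0.

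The other genes among the 12 with the largest ratio in each direction, picked after their values were seen, were *Ermn*, *Fyttd1*, *Bmyc*, *Tmem158*, *Lsm7* and *Irf3* on the higher side. On the lower side they were *Tcrg-C2*, *Lum*, *Cd7*, *Abi3bp* and *Adgrg5*. *Tmem158* had 16 UMIs against 5 in WT and 49 against 9 in *Clec7a*-/-. *Lum*, a matrix proteoglycan of stromal cells, had 0 in both member sums against 17 and 12, of which 12 and 9 came from 1 barcode each.

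Transcripts of other cell types were present in the members, as they were across the libraries. *H2-Aa*, *H2-Ab1*, *H2-Eb1* and *Cd74*, which encode MHC class II chains and their chaperone and mark antigen-presenting cells, summed to 26.5 UMIs per 10000 in WT members and 27.8 in *Clec7a*-/- members. In barcodes outside the T cell limits they summed to 210 and 275. Of the 193 UMIs in WT members 161 were in 1 barcode, and of the 363 in *Clec7a*-/- members 298 were in 3. The comparison cells had 92.0 and 33.5 per 10000. Of their 859 UMIs in WT 836 were in 4 barcodes, and of their 564 in *Clec7a*-/- 508 were in 5. The neutrophil list (9 of 12 genes detected in WT and 8 of 12 in *Clec7a*-/-) summed to 7.68 and 6.05 in the members, led by *Hdc* and *Clec4d*, with *Ltf* and *Camp* at 0 in both.

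The monocyte and macrophage list (8 and 10 of 14 genes) summed to 5.08 and 8.12 per 10000, led by *Lyz2* and *Plac8*, with *Chil3*, *Adgre1*, *Mrc1* and *Ccl24* at 0 in both. Outside the T cell limits these lists summed to 54.9 and 20.1 for neutrophils and 157 and 144 for monocytes and macrophages. The rule left barcodes rich in *S100a8*, *S100a9* or *C1q* genes out of the members, so their lower sums were partly set by it. In the comparison cells the neutrophil list summed to 4.82 and 6.47, and the monocyte and macrophage list to 7.28 and 13.1. The latter sum was thus lower in the members of both libraries, with overlapping intervals in WT but not in *Clec7a*-/-. Its part in the genes lower in the members was not tested. Other dendritic cell genes summed to 0.686 and 2.45 (led by *Flt3* and *Ccl22*, with *Clec9a* and *Cd209a* at 0) and B and plasma cell genes to 1.23 and 0.612 (led by *Ighm*, with *Ms4a1* at 0). In the comparison cells these sums were 3.64 and 1.425 for other dendritic cell genes and 0.321 and 0.119 for B and plasma cell genes. The B and plasma cell sum was thus higher in the members of both libraries, with overlapping intervals. NK cell or ILC genes summed to 0.686 (0.223 to 1.60) and 0.919 (0.475 to 1.60) in the members, led by *Klrc1* and *Tyrobp*, with *Ncr1* and *Klrb1c* at 0. The same sum was 4.71 (3.42 to 6.33) and 2.49 (1.80 to 3.37) in the comparison cells, led by the same genes, so it was lower in the members of both libraries, as *Gzma* and *Ccl5* were, and its part in those differences was not tested. *Il1rl1*, *Gata3*, *Eomes* and *Kit*, which are also on the NK cell or ILC list, and *Il1r2*, which is on the neutrophil list, were left out of these sums because T cells can express them or another list holds them. Mast cell genes summed to 0.274 and 1.15, all of them *Kit*, with *Cpa3* at 0, and epithelial or stromal genes to 0.823 and 0.459, led by *Pecam1*, with *Krt18* and *Col3a1* at 0. Without the barcodes that held 20 or more MHC class II UMIs, 23 and 44 members remained, *Il1rl1* had ratios of 4.32 and 4.01 and *Klrg1* 2.98 and 4.01. The part of RNA from other cells in the remaining differences was not tested.

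**Figure D4:**
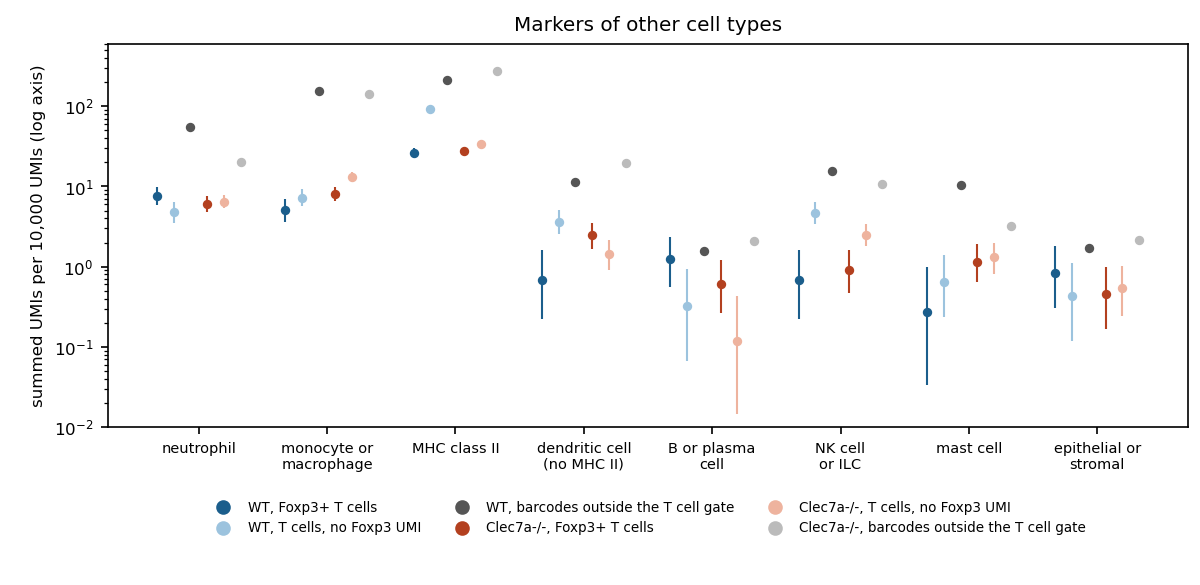
Summed UMIs of marker lists per 10000 UMIs (log axis) in Foxp3+ T cells, in T cells without a Foxp3 UMI and in barcodes outside the T cell limits of each library, with exact Poisson 95% intervals as bars. In Foxp3+ T cells every list sat below its level outside the T cell limits, with MHC class II at 26.5 and 27.8 against 210 and 275. For neutrophil and macrophage genes this was partly set by the rule. In WT the intervals of B or plasma cell genes (0.565 to 2.34) and epithelial or stromal genes (0.302 to 1.79) included the outside levels of 1.59 and 1.70.

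Between the genotypes, Foxp3+ T cells of the *Clec7a*-/- library were set beside those of the WT library, with no test because each genotype has 1 library. Of 2077 genes with at least 20 UMIs in the members, 112 were at least 2-fold higher in *Clec7a*-/- (5.39%) and 65 at least 2-fold lower (3.13%). The balance of these counts rested on the settings. With TMM scaling, which moved all log2 ratios by 0.10, there were 135 and 45, and with a pseudocount of 5 UMIs in place of 0.5 there were 20 and 59.

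Of the 10 suppressive and checkpoint genes measured in the members, 0 were 2-fold higher and 2 were 2-fold lower in *Clec7a*-/-, *Penk* and *Pdcd1*, which encodes the inhibitory receptor PD-1. Of 10 Treg transcription factor genes *Foxo1* was 2-fold higher and *Satb1* 2-fold lower, and none of the 8 cytokine receptor and 5 TNF receptor family genes was 2-fold in either direction. *Mki67* of 12 proliferation genes and *Trbc1* of 8 T cell lineage genes were 2-fold higher. Among 5 cytotoxic and chemokine genes *Gzmb* was 2-fold higher and *Ccl3* 2-fold lower. Among 12 homing and residence genes *Ccr7* was 2-fold higher and *Itgb1* 2-fold lower. The log2 ratio of *Clec7a*-/- over WT was -0.09 (-0.37 to 0.20) for *Icos*, 0.58 (0.15 to 1.06) for *Ctla4*, 0.37 (0.11 to 0.64) for *Tnfrsf9* and 0.59 (0.02 to 1.23) for *Cd4*. It was -0.57 (-1.02 to -0.11) for *Il2ra* and -0.999 (-1.63 to -0.38) for *Il1rl1*. In T cells without a *Foxp3* UMI, *Il2ra* had a ratio of -0.76 and *Il1rl1* -1.59, and in barcodes outside the T cell limits *Il1rl1* had -1.17. The *Il1rl1* value of the *Clec7a*-/- library was thus the lower one in all 3 classes, although in T cells without a *Foxp3* UMI the interval (-3.88 to 0.32) included 0. *Ikzf2*, *Ikzf4*, *Gata3*, *Klrg1*, *Tnfrsf4*, *Tnfrsf18*, *Nt5e* and *Il10* had ratios between -0.77 and 0.62 whose intervals included 0.

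The 8 genes with the largest ratio in each direction, *Penk* apart, had at most 8 UMIs in the members of the library where they were lower. *Hist1h2bc*, a histone gene, had 1 UMI in WT members and 58 in *Clec7a*-/- members, 55 of the 58 in 1 barcode, and *Hist1h1c* had 1 and 23, with 13 of the 23 in 1 barcode. *Scin*, an actin-severing protein, had 1 and 19 UMIs, 13 of the 19 in 1 barcode. *Ifitm3* and *Ifitm1*, interferon-induced membrane proteins, had 2 and 27 and 5 and 52 UMIs. In the comparison cells *Ifitm3* had 19 and 31 and *Ifitm1* 72 and 66, log2 ratios of -0.16 and -0.98. *Larp1*, *Sh2d3c* and *Slc20a1* had 2 UMIs each in WT members and 25, 23 and 23 in *Clec7a*-/- members.

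On the lower side *Ccl3*, a chemokine of activated myeloid and T cells, had 21 UMIs in WT members, 18 of them in 1 barcode, and 7 in *Clec7a*-/- members, a log2 ratio of -2.36 (-3.90 to -1.14). Its ratio was -2.12 in the comparison cells and -1.38 outside the T cell limits. *Penk* had 177 and 89 UMIs, a ratio of -1.83 (-2.22 to -1.46), beside -1.04 in the comparison cells. *Ptk2b*, *S100a13*, *Ppp1ca*, *Igtp*, *Ccnb1* and *Ppp1r2* had between 14 and 19 UMIs in WT members and between 5 and 8 in *Clec7a*-/- members. Of these, *Igtp*, an interferon-induced GTPase, also had a ratio of -1.46 in the comparison cells. *Areg*, a growth factor of tissue repair, had 8 UMIs in WT members and 1 in *Clec7a*-/- members, against 20 and 31 in the comparison cells.

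**Figure D5:**
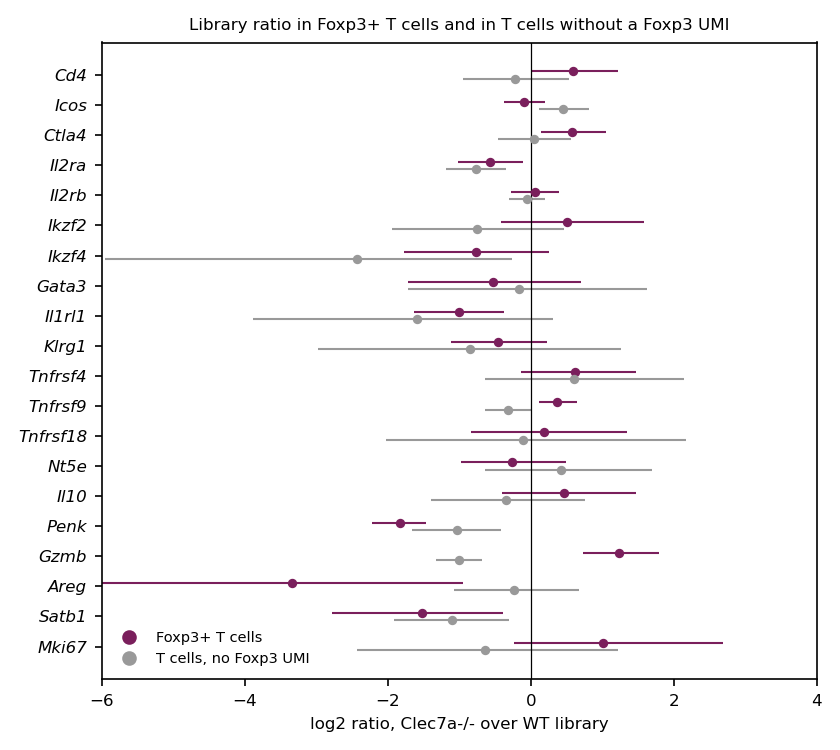
Log2 ratio of the Clec7a-/- library over the WT library for 20 genes, in Foxp3+ T cells and in T cells without a Foxp3 UMI, with exact conditional 95% intervals as bars, which cover counting error only; the bar of Areg runs past the left edge. Icos lay at -0.09 and Penk at -1.83 in Foxp3+ T cells, and Il1rl1 lay below 0 in both classes.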

How the data were processed

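Whole-number UMI counts were deposited by the authors, unnormalized, in 1 matrix per genotype over 32285 features. The labels' processing notes name Cell Ranger 2.1.1 and the mm10 build. The labels' description names 10x Genomics, whereas the protocol names the SeekOne MM kit. Counts are 3' tags, so levels between genes were not compared per length. The methods stated no doublet removal and none was done. Scrublet (in scanpy 1.11.5) called 0 WT and 8 *Clec7a*-/- barcodes, which is too few to rely on.

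UMIs were summed per library and class (Python 3.11.15, numpy 2.4.6, scipy 1.17.1, pandas 2.3.3). Genes with at least 20 UMIs over the 4 sums were tested with edgeR 4.0.16 (R 4.3.3; TMM scaling, library as a block, default glmQLFit), leaving out the 11 genes of the rule, and with DESeq2 1.42.0 as an alternative. Tested on simulated data, the edgeR fit recovered the ratios but made no calls, so its 0 calls are uninformative. Ratios use a pseudocount of 0.5 UMI. Intervals are 95% exact Poisson, binomial or conditional ones. Thinning used random seed 1. Positions are from GENCODE M21. Plots were made with matplotlib 3.10.9.

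Members and lists were chosen with earlier results of these data known. Genes were named as those past the threshold or otherwise the 4 of each list with most UMIs, the markers, and the 8 largest *Clec7a*-/- over WT ratios in each direction; all others were picked after their values were seen. Alternatives were other limits on cells, genes and *Foxp3* UMIs, other comparison cells, scalings, pseudocounts and fits. Results for 2 genes are not reported here.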

Additional observations from a re-analysis of the deposited data

Results flagged for a closer look

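In 3 genes the ratio of Foxp3+ T cells over T cells without a *Foxp3* UMI had opposite signs in the 2 libraries, with counting intervals on either side of 0. The difference was not tested, since each genotype has 1 library. *Gzmb* had log2 ratios of -1.79 in WT and 0.45 in *Clec7a*-/-, and 112 of its 170 UMIs in WT comparison cells came from 1 barcode. *Nkg7*, a cytotoxic granule protein, had -4.29 and 2.69 with the pseudocount, from 0 against 12 UMIs in WT and 12 against 2 in *Clec7a*-/-, with 9 of the latter 12 in 1 barcode. *Il1r2* had -0.82 and 0.92. The cause was not tested.

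A *Foxp3* UMI was also found in 11 WT and 14 *Clec7a*-/- kept barcodes outside the T cell limits, which entered no comparison. These barcodes held 21 *Foxp3* UMIs in each library, beside 89 and 115 in the members.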

How the results depend on the processing

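The number of genes called by the fit depended on the settings (higher and lower counts are given in that order). From 0 and 0 it went to 33 and 57 with 500 to 6000 detected genes, 23 and 30 without the neutrophil and macrophage limits, 39 and 47 with these limits halved, 11 and 17 with at least 3 T cell genes, 4 and 9 without the top 5% of Scrublet scores, 36 and 53 with at least 2 *Foxp3* UMIs, 9 and 8 with barcodes thinned to 500 UMIs, 13 and 15 with at least 50 UMIs per gene, and 3 and 3 with DESeq2. Without the replicate block, here the library, it was 4 and 10. Alternatives chosen after seeing the data gave 34 and 50 without barcodes of 20 or more MHC class II UMIs, 0 and 2 without any barcode with an *H2-Aa*, *H2-Ab1* or *Cd74* UMI, and 15 and 26 with a robust prior, whereas the newer edgeR fit gave 0 and 0 with and without a robust prior. The other 6 settings gave 0 and 0. The cause was not tested.

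The counts at least 2-fold in both libraries, 75 and 71, were 24 and 17 thinned, 45 and 46 without any barcode with an *H2-Aa*, *H2-Ab1* or *Cd74* UMI, 512 and 559 without a minimum of UMIs, and 26 and 21 at 50 UMIs; against *Cd4* cells the lower count was 38. Between genotypes, 112 and 65 became 20 and 59 with a pseudocount of 5, 11 and 8 at 50 UMIs, 149 and 123 as a mean over barcodes, and 28 and 26 without any *H2-Aa*, *H2-Ab1* or *Cd74* UMI. The Foxp3+ share of T cells was 23.6% in WT and 19.5% in *Clec7a*-/- when thinned to 500 UMIs, 29.1% in *Clec7a*-/- against 41.7% in WT when thinned to 1000 UMIs, and 34.5% in WT and 21.9% in *Clec7a*-/- with at least 2 *Foxp3* UMIs. Of barcodes kept, Foxp3+ T cells were 0.286% and 0.777% without any *H2-Aa*, *H2-Ab1* or *Cd74* UMI, 0.572% and 1.22% with 3 T cell genes, and 0.604% and 1.04% with 2 *Foxp3* UMIs. The intervals of the libraries overlapped in each of these settings.

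Of 27 genes followed over these settings and in each library alone, where they passed the minimum of UMIs, 23 kept the sign of their fitted ratio over both libraries. The ratios within each library against other comparison cells, where *Gzma* turned, are given above and not counted here. Against *Cd4* cells *Ctla4* became -0.0505, *Il10* -0.25 and *Cd4* -0.52, the last set by the choice of those cells for a *Cd4* UMI, and *Il2ra* became -0.16 at 5% mitochondrial UMIs and -0.00197 without barcodes of 20 or more MHC class II UMIs. No paired analysis between genotypes was possible because each has 1 library, and 71 cells limit the low genes.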
